A study of Mus musculus with 18 samples.

Results

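The matrix metalloproteinases (MMPs) and their tissue inhibitors (TIMPs) were followed in mouse mammary tumors treated with a PI3K inhibitor, a SHP2 inhibitor or both. The 9 genes described were given by name, by a rule that holds no measured value, although the set was drawn up with earlier results of these data known: the MMP genes Mmp2, Mmp3, Mmp10, Mmp11, Mmp13 and Mmp14, and the inhibitor genes Timp1, Timp2 and Timp3. They are 9 of the 22792 genes in the count tables, and each was matched by its Entrez Gene identifier. RNA-seq counts came from 18 primary tumors, 1 per mouse, grown from 4T1, a metastatic triple-negative carcinoma line of the mouse mammary gland, placed in the fat pad of female Balb/c mice. All mice were 8 weeks old at injection and received 300000 cells, treatment ran from day 7 to day 21, and tumors were taken on day 21. The groups were Vehicle (no inhibitor, n = 5), PI3Ki (the pan-PI3K inhibitor CLR457, n = 4), SHP2i (the allosteric SHP2 inhibitor SHP099, n = 4) and Combo (both inhibitors, n = 5). The design asked how both signaling routes act in primary tumors. A single cell line in a single strain was used, and each library held the RNA of cancer cells and host cells together, so that fewer cells of a type and less RNA per cell cannot be told apart.

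MMPs are zinc-dependent endopeptidases that cut collagens, proteoglycans and other proteins of the extracellular matrix, and also release growth factors and receptor ectodomains. Most are secreted as inactive proenzymes whose inhibitory segment must be removed, and TIMPs then block the active site. Transcription of several secreted MMPs is known to respond to growth factors and inflammatory cytokines through ERK signaling and AP-1 factors, and in mammary tumors both cancer cells and stromal cells produce them.

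The promoters are shown first because 3 of the members share a short element that the other members with a sequence lacked within the same distance. In RefSeq sequence (GRCm38.p6), 8 of the 9 members had a window upstream of the start site, all but Mmp2. An AP-1 site (TGAGTCA or its reverse complement TGACTCA, both strands searched) lay within 250 bases upstream of Mmp13, Mmp3 and Mmp10, compared with 4.46% of 32851 windows of the same length. The same 3 windows held a TATA box (TATAAA, 12.37% of windows). A GC box (GGGCGG, 32.74% of windows) lay in the windows of Mmp11, Mmp14, Timp1, Timp2 and Timp3 and in none of the 3 with an AP-1 site. These are matches of letters and no measure of binding, and whether a change in level depends on the element was not tested. Timp3, with a GC box and no AP-1 site, was also lower in Combo. Mmp12 and Mmp1b, MMP genes outside the members, had AP-1 matches and did not pass the test described below. Below stand the 150 bases before the start site of Mmp13 (chr9:7272364-7272513, plus strand), Mmp3 (chr9:7445672-7445821, plus strand), Mmp10 (chr9:7502192-7502341, plus strand) and Mmp11 (chr10:75932503-75932652, minus strand). The first 3 hold the element, and Mmp11 was chosen for its clear rise in Combo. Capitals mark the AP-1 site in the first 3 and the GC boxes in Mmp11.
Mmp13: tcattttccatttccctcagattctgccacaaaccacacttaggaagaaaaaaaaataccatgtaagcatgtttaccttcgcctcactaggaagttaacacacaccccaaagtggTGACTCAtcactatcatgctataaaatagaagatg
Mmp3: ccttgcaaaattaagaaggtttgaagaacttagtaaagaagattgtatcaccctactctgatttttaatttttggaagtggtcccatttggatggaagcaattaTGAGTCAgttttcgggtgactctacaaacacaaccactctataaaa
Mmp10: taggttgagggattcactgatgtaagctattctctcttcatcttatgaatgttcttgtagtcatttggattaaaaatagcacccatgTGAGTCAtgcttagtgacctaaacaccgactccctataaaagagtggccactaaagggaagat
Mmp11: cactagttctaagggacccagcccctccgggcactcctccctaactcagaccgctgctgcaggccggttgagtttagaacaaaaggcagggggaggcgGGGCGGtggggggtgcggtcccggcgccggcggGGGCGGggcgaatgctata
The AP-1 site began 35 bases before the annotated RefSeq start in Mmp13, 46 bases before it in Mmp3 and 63 bases before it in Mmp10. The TATA box began 16, 7 and 29 bases before that start in the same order. Where transcription began in these tumors was not measured, so distances from the true start may differ.

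In the same build, Mmp13 (Entrez Gene 17386, chr9:7272514-7283333), Mmp3 (17392, chr9:7445822-7455975) and Mmp10 (17384, chr9:7502342-7510242) lie in 1 cluster of MMP genes. The other members are spread over the genome: Mmp2 (17390, chr8:92827290-92853421), Mmp11 (17385, chr10:75923221-75932502), Mmp14 (17387, chr14:54431598-54442456), Timp1 (21857, chrX:20870166-20874737), Timp2 (21858, chr11:118301061-118355411) and Timp3 (21859, chr10:86300412-86349505). Values cover whole genes and do not separate exons, introns and UTRs or transcript isoforms.

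Each tumor had 21.16 M to 26.62 M counts in all, and 15282 genes had enough counts to be tested, all 9 members among them. Levels are counts per M counts (CPM, TMM scaled), differences are log2 fold changes ± standard error (SE), and a gene was called at an adjusted p under 0.05 in edgeR's quasi-likelihood test with Benjamini-Hochberg adjustment over all 15282 genes. Where nothing else is said, adjusted p-values are from that test. Epithelial markers were present in every group, with summed levels of 777 to 1230 CPM in Vehicle and 683 to 958 CPM in Combo. Of these 10 markers, 1 was called lower in Combo, beside 19.7% of all genes. Some libraries stood apart: skeletal muscle markers summed to 805 to 1940 CPM in the 4 PI3Ki tumors and to at most 103 CPM in any other tumor, and neutrophil markers were far above the rest of the series in PI3Ki replicate 2 (4.21 log2 units above the Vehicle mean). B cell markers were high in Combo replicates 3 and 4 (1.24 and 1.69 above the Vehicle mean, against -3.79 to -2.89 in the other 3 Combo tumors) and in PI3Ki replicate 5 (1.75), the highest of the series, with PI3Ki replicate 3 at 0.61. Muscle content and PI3Ki treatment cannot be told apart in these tumors. The 3 comparisons with Vehicle share the same 5 control tumors.

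Dual inhibition changed the MMP and TIMP genes in both directions. Against Vehicle, Mmp13, Mmp10, Mmp3 and Timp3 were lower in Combo, by log2 changes between -2.91 and -0.74, and Mmp11, Timp2 and Mmp14 were higher, by 0.44 to 1.12. This makes 7 of 9 members called (3 higher, 4 lower), beside 43.6% of all genes tested, of which 23.9% were higher and 19.7% lower. With a log2 fold change over 1 in size as well, 4 members remained (Mmp10, Mmp11, Mmp13 and Timp3), beside 10.9% of all genes. Under that limit 0 of 9 members were left in PI3Ki (1.75% of all genes) and in SHP2i (3.74%). Without Combo replicates 3 and 4, the Combo tumors with high B cell markers, 7 of 9 members were called in Combo against Vehicle. The median log2 fold change was -0.405 over the 9 members and 0.0225 over all genes. Each single inhibitor moved 1 member past the test, Timp2 in both cases.

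**Figure D1:**
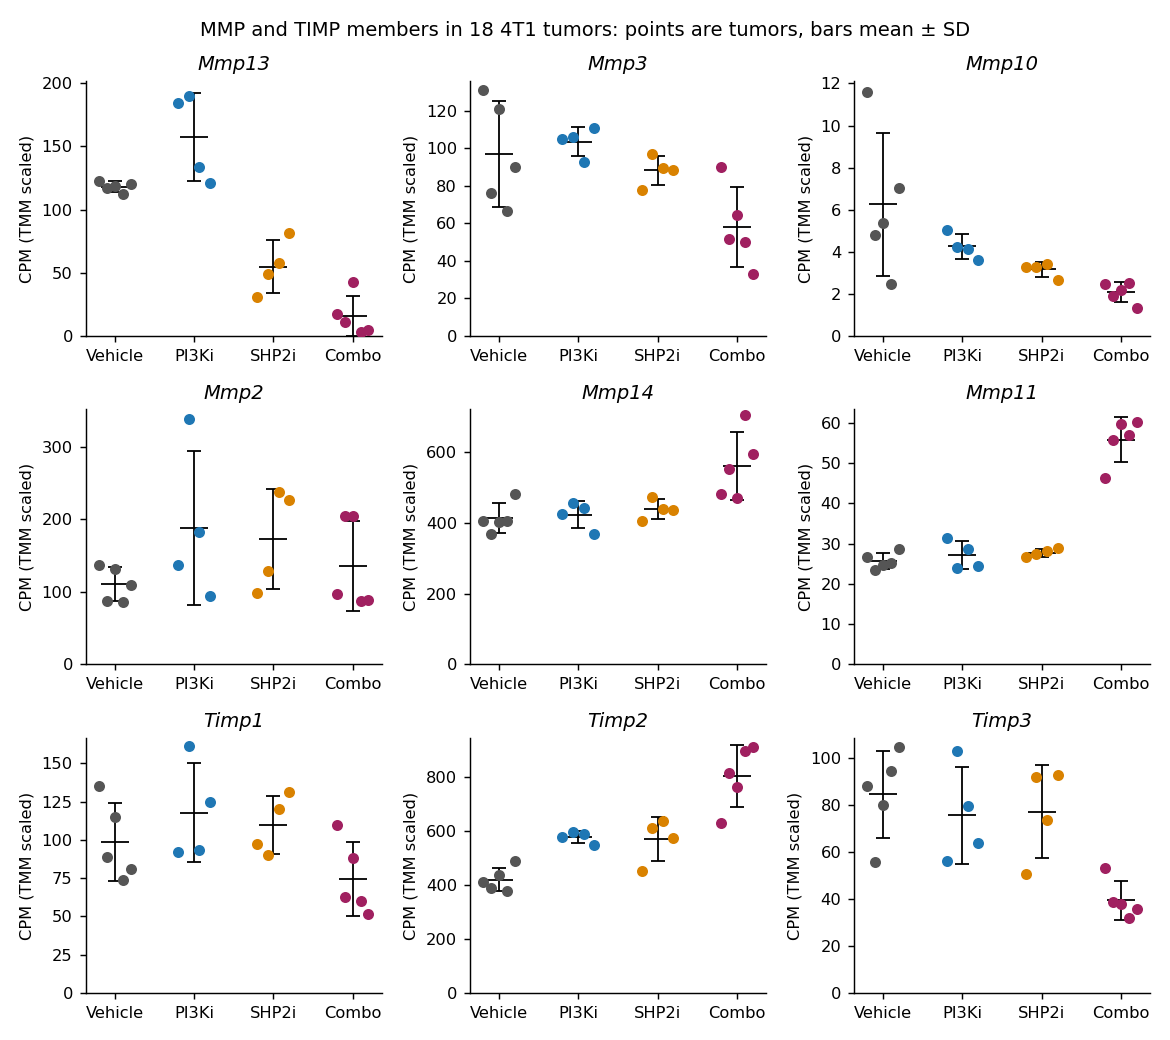
Level of each member in the 18 tumors, in CPM (TMM scaled) on linear axes that start at 0. Points are tumors ordered by replicate number within Vehicle, PI3Ki, SHP2i and Combo, and bars give mean ± SD. In the Mmp13 panel the 5 Combo tumors lie between 3.07 and 42.6 CPM, below the 112 to 123 CPM of Vehicle. In the Mmp11 panel the 5 Combo tumors lie between 46.3 and 60.2 CPM, above all 13 other tumors.

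Mmp13 is an interstitial collagenase that cleaves fibrillar collagens. In Vehicle replicates 1 to 5 it stood at 123, 117, 119, 112 and 120 CPM, and in PI3Ki replicates 1, 2, 3 and 5 at 184, 190, 134 and 121 CPM. In SHP2i replicates 2 to 5 it stood at 31, 49.2, 58.1 and 81.4 CPM, and in Combo replicates 1 to 5 at 17.1, 11.1, 42.6, 3.07 and 4.43 CPM. The replicates are given in this order throughout. The Vehicle tumors were closely alike, each SHP2i tumor was below each Vehicle tumor, and the Combo tumors were lower still but scattered widely, with Combo replicate 3 inside the SHP2i range. The means were 118 ± 4.21 (SD, n = 5), 157 ± 34.7 (n = 4), 54.9 ± 20.9 (n = 4) and 15.7 ± 16.1 CPM (n = 5). Combo was lower than Vehicle by a log2 fold change of -2.91 ± 0.497, a 7.53-fold difference (adjusted p = 0.000198). Without Combo replicate 3 the log2 fold change was -3.73 (adjusted p = 4.43e-06).

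In SHP2i against Vehicle, the Mmp13 log2 fold change was -1.11 ± 0.497 and missed the test (adjusted p = 0.149), although the groups did not overlap. The fit shares 1 spread over all groups. The difference missed the test in 24 of 28 alternatives (adjusted p up to 0.295). It passed when only these 9 tumors were fitted (adjusted p = 0.00397), with limma's voom (adjusted p = 0.00796), without Combo replicate 3 (adjusted p = 0.0483), and without Combo replicates 3 and 4 (adjusted p = 0.019). In PI3Ki, 3 of 4 tumors were above the Vehicle range and the fold change was 0.41 ± 0.48 (adjusted p = 0.716).

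Mmp3 and Mmp10 encode the stromelysins, which degrade proteoglycans, laminin and fibronectin and activate other pro-MMPs. Their sequences are related, and how reads that match both were counted is not stated in the sources used here. Mmp3 stood at 131, 76.1, 121, 66.5 and 90.2 CPM in Vehicle and at 105, 106, 92.7 and 111 CPM in PI3Ki. It stood at 78, 97.2, 89.7 and 88.3 CPM in SHP2i and at 90.2, 51.5, 64.6, 50.1 and 32.8 CPM in Combo. Combo replicate 1 was within the ranges of Vehicle and SHP2i, and 4 of 5 Combo tumors were below every Vehicle tumor. Combo was lower than Vehicle by a log2 fold change of -0.74 ± 0.214 (adjusted p = 0.0101).

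Mmp10 was the least abundant member, at 11.6, 4.81, 5.36, 2.46 and 7.02 CPM in Vehicle and 5.03, 4.24, 4.12 and 3.63 CPM in PI3Ki. It stood at 3.3, 3.28, 3.42 and 2.64 CPM in SHP2i and at 2.49, 1.92, 2.2, 2.5 and 1.33 CPM in Combo, where 30 to 58 counts per tumor lie behind the value. The Vehicle tumors spread over a wide range and the treated groups were tight, with all Combo tumors below all tumors of either single inhibitor. Vehicle replicate 4 reached into the Combo range. The log2 fold change of Combo against Vehicle was -1.58 ± 0.299 (adjusted p = 0.000499). In SHP2i it was -0.98 ± 0.314, just short of the test (adjusted p = 0.0511). The SHP2i difference missed the test in 23 of 28 alternatives (adjusted p up to 0.131). It passed with DESeq2 (adjusted p = 0.0204), with upper-quartile scaling (0.0471), with a mean CPM of at least 1 (0.0487), without Vehicle replicate 4 (0.0101) and without Combo replicate 5 (0.042).

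Mmp11, the third stromelysin by name, differs from both in being activated inside the cell by furin and in its weak action on matrix proteins. It stood at 26.6, 23.5, 24.8, 25.2 and 28.7 CPM in Vehicle and at 31.3, 23.9, 28.6 and 24.5 CPM in PI3Ki. It stood at 26.6, 27.4, 28.1 and 28.9 CPM in SHP2i and at 46.3, 55.7, 59.7, 56.9 and 60.2 CPM in Combo. Tumors of the first 3 groups were intermixed and every Combo tumor was above all of them. The means were 25.7 ± 1.97, 27.1 ± 3.5 and 27.7 ± 0.963 CPM in Vehicle, PI3Ki and SHP2i, and 55.8 ± 5.59 CPM in Combo. The log2 fold change of Combo against Vehicle was 1.12 ± 0.0874, or 2.17-fold (adjusted p = 1.52e-07), and the single inhibitors gave 0.07 ± 0.0922 for PI3Ki (adjusted p = 0.734) and 0.11 ± 0.0922 for SHP2i (adjusted p = 0.458).

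Mmp11 overlaps Chchd10 on the opposite strand by 155 exon bases, and reads from that stretch may be counted for both genes. Reads outside the shared exons may be counted for both too, since Syn1 repeats the Timp1 counts with 0 shared exon bases (below). The count of Chchd10 was 0.411 to 1.34 times that of Mmp11. Chchd10, a mitochondrial protein gene, was also higher in Combo, at 38.9 ± 23.8 CPM against 13 ± 0.491 CPM in Vehicle (log2 fold change 1.58 ± 0.28, adjusted p = 0.000277). Its Combo tumors ran from 23.8 to 80 CPM, a far wider spread than that of Mmp11, and its level in SHP2i was 24.3 ± 4.61 CPM where Mmp11 stood near its Vehicle level. The part of these reads in the Mmp11 value was not tested.

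Mmp14 is the membrane-anchored MMP that, with Timp2 as a bridge, activates pro-Mmp2 at the cell surface, and Mmp2 is a gelatinase that degrades denatured collagen and basement membrane collagen. Mmp14 stood at 406, 368, 403, 405 and 483 CPM in Vehicle and at 424, 457, 442 and 369 CPM in PI3Ki. It stood at 405, 473, 439 and 438 CPM in SHP2i and at 482, 552, 470, 704 and 596 CPM in Combo. The Combo tumors were the highest apart from Vehicle replicate 5 and SHP2i replicate 3, which overlapped the lowest of them. The difference between Combo and Vehicle was small but passed the test (log2 fold change 0.44 ± 0.105, adjusted p = 0.00296).

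Mmp2 stood at 137, 87.5, 131, 86.7 and 110 CPM in Vehicle and at 137, 338, 183 and 94.4 CPM in PI3Ki. It stood at 98.4, 129, 237 and 226 CPM in SHP2i and at 96.6, 204, 204, 87.7 and 88.2 CPM in Combo. Tumors of 1 group differed from each other by more than the groups did, and all groups overlapped. The log2 fold changes against Vehicle were 0.77 ± 0.363 for PI3Ki (adjusted p = 0.253), 0.64 ± 0.363 for SHP2i (adjusted p = 0.252) and 0.3 ± 0.344 for Combo (adjusted p = 0.506), so that no difference was detectable beyond the spread between tumors.

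The 3 inhibitors went separate ways. Timp2, which blocks most MMPs and takes part in the Mmp14 complex on the cell surface, stood at 413, 389, 436, 378 and 488 CPM in Vehicle and at 578, 599, 590 and 548 CPM in PI3Ki. It stood at 454, 613, 638 and 576 CPM in SHP2i and at 632, 818, 765, 897 and 914 CPM in Combo. Vehicle was lowest, the single inhibitors lay together in the middle with only SHP2i replicate 2 inside the Vehicle range, and Combo was highest with replicate 1 just below the highest SHP2i tumor. The log2 fold changes against Vehicle were 0.46 ± 0.114 for PI3Ki (adjusted p = 0.0264), 0.44 ± 0.114 for SHP2i (adjusted p = 0.0199) and 0.94 ± 0.109 for Combo (adjusted p = 6e-06).

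Timp2 was the 1 member of 9 called in PI3Ki, beside 5.11% of all genes, and the 1 of 9 called in SHP2i, beside 11.6%. Both calls were near the threshold. In PI3Ki the adjusted p rose to 0.0537, 0.0695 and 0.0773 without Vehicle replicates 1, 2 and 4, and to 0.061 and 0.0536 without PI3Ki replicates 1 and 2. In SHP2i it rose to 0.0601 and 0.0502 without Vehicle replicates 2 and 4, and to 0.0575, 0.0828 and 0.0599 without SHP2i replicates 3, 4 and 5. The direction was the same each time, with log2 fold changes of at least 0.36. The Combo call held in all 28 alternatives (0.87 to 1.01).

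Timp3 is held in the extracellular matrix and also inhibits some ADAM and ADAMTS proteases. It stood at 88.2, 55.8, 79.9, 94.6 and 105 CPM in Vehicle and at 56.2, 103, 79.6 and 64.1 CPM in PI3Ki. It stood at 50.5, 91.9, 73.9 and 92.8 CPM in SHP2i and at 53.4, 38.7, 38, 31.8 and 35.6 CPM in Combo. All Combo tumors were below all Vehicle and PI3Ki tumors, and Combo replicate 1 overlapped SHP2i replicate 2. The log2 fold change of Combo against Vehicle was -1.1 ± 0.204 (adjusted p = 0.000422), against -0.16 ± 0.214 for PI3Ki and -0.13 ± 0.214 for SHP2i, neither past the test (adjusted p = 0.753 and 0.717).

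Timp1 is a soluble inhibitor that many cells induce under cytokine stimulation. It stood at 135, 89, 115, 73.8 and 81 CPM in Vehicle and at 91.8, 161, 93.5 and 125 CPM in PI3Ki. It stood at 97.3, 90, 120 and 131 CPM in SHP2i and at 110, 62.6, 88.4, 60.3 and 51.7 CPM in Combo. The groups overlapped, although 3 of 5 Combo tumors were below every tumor of the other groups. The log2 fold change of Combo against Vehicle was -0.4 ± 0.22 and missed the test (adjusted p = 0.147), and it passed only without Combo replicate 1 among 28 alternatives (-0.58, adjusted p = 0.036).

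The counts of Timp1 and Timp3 were nearly repeated in a second gene. Both lie inside synapsin genes on the opposite strand, and the count of Syn1 was 1.034 to 1.049 times that of Timp1 in every tumor, while the count of Syn3 was 1.008 to 1.038 times that of Timp3. Syn1 shares 0 exon bases with Timp1. The synapsin counts exceeded the TIMP counts by 52 to 132 and by 14 to 36 per tumor, and are not used as separate measurements.

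**Figure D2:**
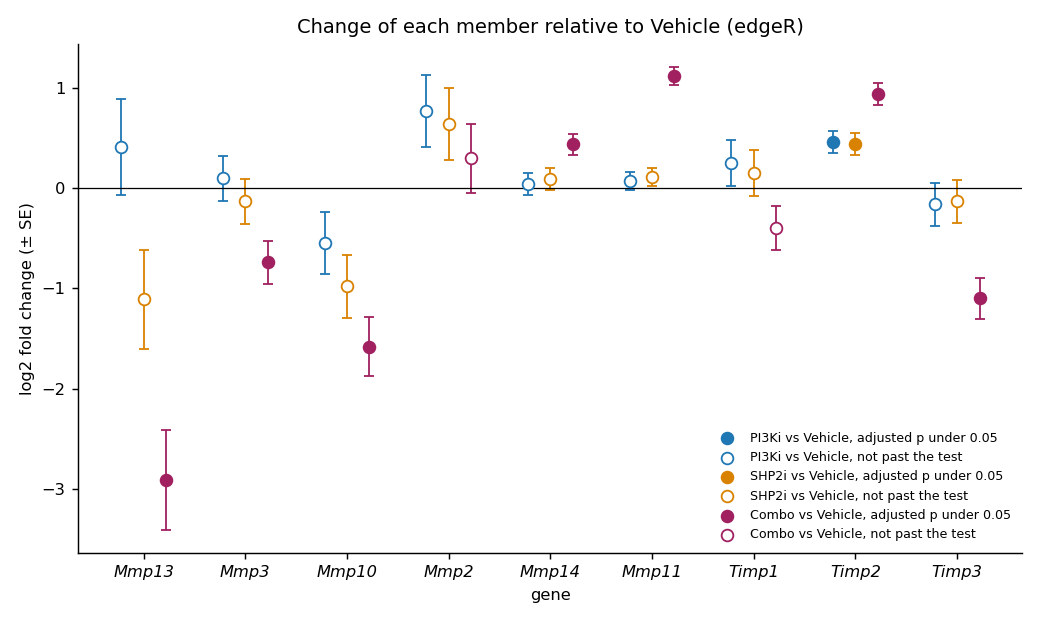
Log2 fold change of each member against Vehicle (edgeR), with bars of ± SE, for PI3Ki, SHP2i and Combo. Filled points have an adjusted p under 0.05: 7 of the 9 Combo points, from -2.91 for Mmp13 to 1.12 for Mmp11, and Timp2 in both single-inhibitor groups at 0.46 and 0.44.

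The combination was then set against each inhibitor alone. Against PI3Ki, 8 of 9 members were called in Combo (3 higher, 5 lower), beside 37.7% of all genes (19.9% higher, 17.8% lower). With a log2 fold change over 1 in size as well, Mmp10, Mmp11 and Mmp13 were left, beside 11.1% of all genes. The largest difference was that of Mmp13 (log2 fold change -3.32 ± 0.517, adjusted p = 0.00013), followed by Mmp11 (1.04 ± 0.0936, adjusted p = 9e-07), Mmp10 (-1.02 ± 0.312, adjusted p = 0.016) and Timp3 (-0.94 ± 0.214, adjusted p = 0.00259). Mmp3 (-0.84, adjusted p = 0.00754) was also lower, and Timp2 (0.48, adjusted p = 0.00393) and Mmp14 (0.41, adjusted p = 0.0092) were higher. In each of these 7 genes all 5 Combo tumors lay on 1 side of all 4 PI3Ki tumors. The share of all genes that separate in this way was not counted, so whether the separation is particular to the members cannot be told. Timp1 (-0.66 ± 0.231, adjusted p = 0.0331) overlapped and was lost in 9 of 28 alternatives, with adjusted p-values up to 0.134, reached without PI3Ki replicate 2. It was also lost without PI3Ki replicate 5 (0.0651) and without Combo replicates 2 (0.0722), 4 (0.0721) or 5 (0.0834). The Mmp10 call was lost with limma's voom (adjusted p = 0.0906). Without Combo replicate 3 the Mmp13 log2 fold change was -4.14.

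Against SHP2i, 5 of 9 members were called in Combo, beside 22.1% of all genes, and 2 of 9 (Mmp11 and Mmp13) with a log2 fold change over 1 in size as well, beside 4.57%. Mmp11 (log2 fold change 1.01 ± 0.0935, adjusted p = 9.23e-06), Timp2 (0.5 ± 0.116, adjusted p = 0.00629) and Timp3 (-0.97 ± 0.214, adjusted p = 0.0046) passed in all 28 alternatives. Mmp13 was lower (-1.8 ± 0.5, adjusted p = 0.0167), but 2 of 28 alternatives lost the call, the fit of the compared groups alone (-1.79, adjusted p = 0.0939) and the fit without SHP2i replicate 5 (-1.55, adjusted p = 0.0555), and it stood at -2.62 without Combo replicate 3. Mmp14 was higher (0.35 ± 0.112, adjusted p = 0.0322), a call that 8 of 28 alternatives lost. Among these, its adjusted p was 0.0875 and 0.0703 without Combo replicates 4 and 5, and 0.0972, 0.0669 and 0.0662 without SHP2i replicates 2, 4 and 5. Mmp3 missed the test at -0.61 ± 0.225 (adjusted p = 0.0604) and in 24 of 28 alternatives, and passed without Combo replicate 1 (-0.82, adjusted p = 0.00927). Timp1 at -0.55 ± 0.231 (adjusted p = 0.0939) also passed without that tumor (-0.73, adjusted p = 0.0266), and missed in 26 of 28 alternatives. Mmp10 was at -0.59 ± 0.315 (adjusted p = 0.184), although all Combo tumors were below all SHP2i tumors.

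Between the single inhibitors, Mmp13 was the 1 member called (beside 24.5% of all genes, or 6.63% with a log2 fold change over 1 in size as well), lower in SHP2i than in PI3Ki by a log2 fold change of -1.52 ± 0.521 (adjusted p = 0.0424) with no overlap of the groups. It failed the test in 14 of 28 alternatives. These were library-size scaling (adjusted p = 0.0548), the replicate block (0.121) and fits that left out any 1 of Vehicle replicates 1 to 5, PI3Ki replicates 1, 2 and 5, SHP2i replicates 2, 3 and 4 or Combo replicate 1 (0.0501 to 0.114). The interaction asks whether the effect of both inhibitors differs from the sum of the single effects on the log2 scale. Mmp11 was the 1 member called (0.93 ± 0.131, adjusted p = 0.00179, beside 2.47% of all genes, or 1.67% with an interaction over 1 in size as well), and it passed in all 27 alternatives. For Timp2 the interaction was 0.04 ± 0.162 (adjusted p = 0.923), with single effects of 0.46 and 0.44 beside 0.94 for both. For Mmp13 it was -2.22 ± 0.691 and missed the test (adjusted p = 0.103), as it did in 24 of 27 alternatives (adjusted p up to 0.184). Without Combo replicate 3 it was -3.03 (adjusted p = 0.00624).

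Levels of different genes were compared per length, as CPM per kb of annotated exon. In Vehicle, Timp2 (113 ± 11.7 CPM per kb) and Timp1 (111 ± 29) were the highest members and did not differ beyond their spread, and Mmp14 (98.7 ± 10) lay just under them within the same spread. Mmp3 (53.7 ± 15.4), Mmp13 (44.3 ± 1.57) and Mmp2 (35.9 ± 7.65) followed as neighbours whose ranges met, then Timp3 (17.9 ± 3.93), Mmp11 (11.3 ± 0.863) and Mmp10 (3.63 ± 1.99). In Combo, Timp2 (217 ± 30.8) was clear of the rest, followed by Mmp14 (134 ± 22.7), Timp1 (84.1 ± 27.3), Mmp2 (44.2 ± 20.2), Mmp3 (32.1 ± 11.9) and Mmp11 (24.4 ± 2.44). Below these stood Timp3 (8.37 ± 1.74), Mmp13 (5.86 ± 6.02) and Mmp10 (1.21 ± 0.284). Per length, Mmp13 stood above Mmp11 in every Vehicle tumor and below it in every Combo tumor. Since counts of Timp1 reached a gene that shares no exon bases with it, reads outside exons may be counted too, which per-exon lengths do not allow for.

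The summed level of the 6 MMP members was 247 ± 29.8 CPM per kb in Vehicle and 242 ± 18.8 in Combo, with a different make-up. Mmp13 made up 18.1% ± 1.67 of the sum in Vehicle, 20% ± 2.61 in PI3Ki, 8.21% ± 2.21 in SHP2i and 2.37% ± 2.33 in Combo. Mmp14 went from 40.2% ± 4.44 in Vehicle to 55.7% ± 10 in Combo, and Mmp11 from 4.58% ± 0.432 to 10.1% ± 1.18. Of the 3 TIMP members, Timp2 made up 47.1% ± 5.44 in Vehicle and 70.1% ± 9.44 in Combo, and Timp1 45.4% ± 6.65 and 27.2% ± 8.93. The ratio of the MMP sum to the TIMP sum was 1.02 ± 0.0377 in Vehicle, 0.963 ± 0.12 in PI3Ki, 0.832 ± 0.014 in SHP2i and 0.782 ± 0.0641 in Combo. Each SHP2i and Combo tumor (0.699 to 0.857) was below each Vehicle tumor (0.986 to 1.07), a description of RNA levels given without a test. The PI3Ki tumors ran from 0.791 to 1.07, and the lowest of them, replicate 5, was below every SHP2i tumor (0.813 to 0.843). The MMP sum leaves out Mmp9 and Mmp12, which are not members. Per kb, Mmp9 stood at 65.5 ± 14.5 CPM in Vehicle, 169 ± 70 in PI3Ki, 42.1 ± 14.5 in SHP2i and 45.9 ± 24 in Combo. Mmp12 stood at 38.6 ± 5.09, 58 ± 18.1, 49.7 ± 21 and 21.8 ± 17.1 in the same order. The sums and the ratio describe the members alone, and the order of the groups may differ over all MMP genes.

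**Figure D3:**
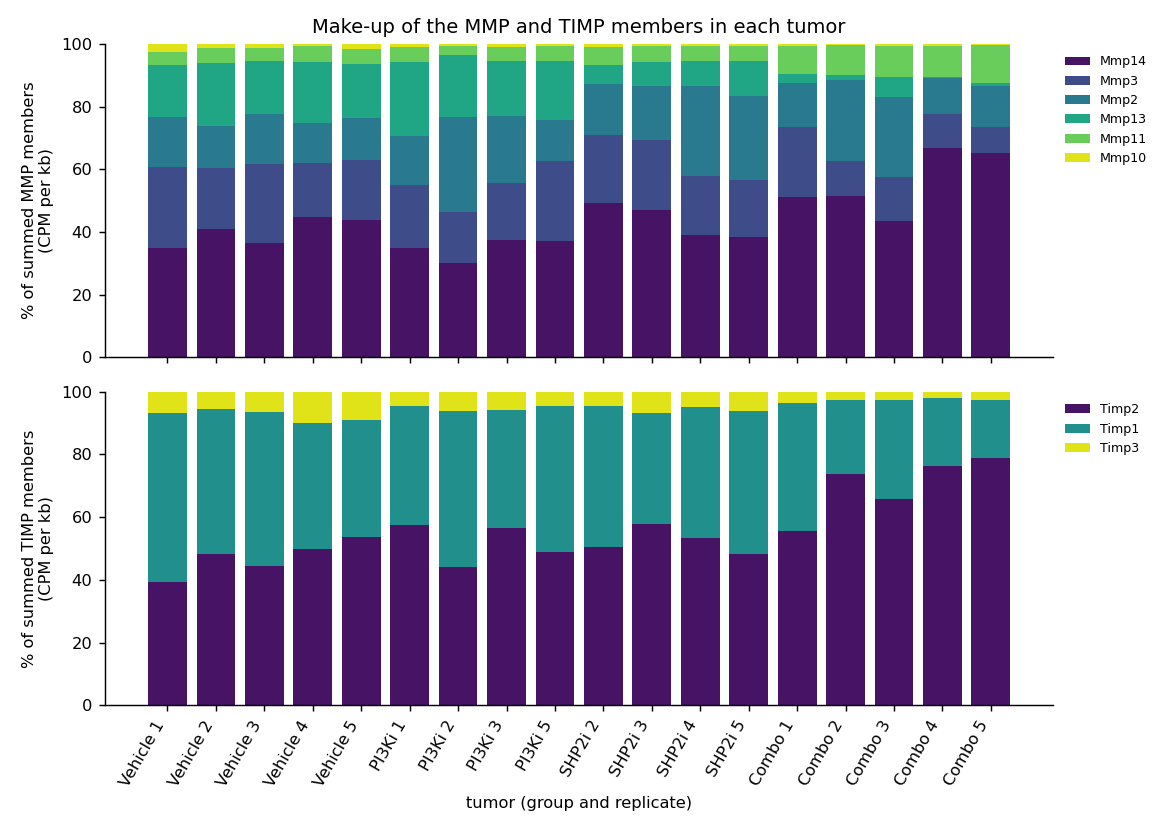
Share of each member in the summed level (CPM per kb of exon, in percent) of the 6 MMP members (top) and the 3 TIMP members (bottom), 1 bar per tumor by group and replicate. The Mmp13 segment is 16.6% to 20.3% of the bar in Vehicle and 0.455% to 6.19% in Combo, and the Timp2 segment reaches 55.7% to 78.9% in Combo.

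Of the other 18 MMP and TIMP genes, 14 were tested, and in Combo against Vehicle 4 were higher and 3 lower, beside 43.6% of all genes called. Mmp25, a membrane-anchored MMP of leukocytes, fell from 5.82 ± 1.18 to 0.892 ± 0.486 CPM (log2 fold change -2.69 ± 0.396, adjusted p = 5.31e-05), and neutrophil markers fell with it (6 of 9 tested were lower, with sums of 15.6 to 59.5 CPM in Combo and 122 to 274 CPM in Vehicle). Mmp28, or epilysin, rose from 14 ± 1.41 to 31.6 ± 4.83 CPM (1.17 ± 0.191, adjusted p = 1.32e-04). Timp4 rose from 2 to 7 counts per Vehicle tumor to 22 to 79 counts per Combo tumor (3.41 ± 0.539, adjusted p = 1.03e-04), and lies inside Syn2, with which it can share reads. Neither Mmp9, the other gelatinase (-0.51, adjusted p = 0.192), nor Mmp12, the macrophage elastase (-0.82, adjusted p = 0.119), passed in Combo. Mmp9 was the 1 gene of these called in PI3Ki, at 538 ± 222 CPM against 208 ± 46.2 CPM in Vehicle (1.37 ± 0.327, adjusted p = 0.0206), with its highest level of 859 CPM in PI3Ki replicate 2, the tumor with the high neutrophil markers. PI3Ki replicates 1, 3 and 5 stood at 507, 359 and 428 CPM, also above every Vehicle tumor (163 to 283 CPM). Their neutrophil markers lay within the Vehicle range, at -0.17, 0.37 and 0.78 log2 units relative to the Vehicle mean. The part of neutrophils in the Mmp9 level was not tested. Mmp27, on the chromosome 9 cluster and chosen after its values were seen, was the 1 called in SHP2i (1.72 ± 0.47, adjusted p = 0.025), at 26 to 67 counts per tumor. Over all genes, 5.11% were called in PI3Ki and 11.6% in SHP2i.

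Of the 10 genes of the chromosome 9 cluster, 7 were tested, and Mmp13, Mmp3 and Mmp10 were the 3 called in Combo. This share is close to the 43.6% of all genes called. The log2 fold change was below 0 in 6 of the 7, beside a median of 0.0225 over all genes. Differences between the genes were not tested. Between Mmp13 and Mmp3 lie Mmp12 (-0.82) and Mmp1b (-0.4, adjusted p = 0.436), which share 157 exon bases with each other, and beyond Mmp10 lie Mmp8 (-0.29, adjusted p = 0.747) and Mmp27 (0.7, adjusted p = 0.23). None of these 4 passed the test, although the value of Mmp12 was close to that of Mmp3. AP-1 matches were also found upstream of Mmp12, Mmp1a, Mmp1b and Mmp7 in this cluster, of which only Mmp12 and Mmp1b were tested.

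**Figure D4:**
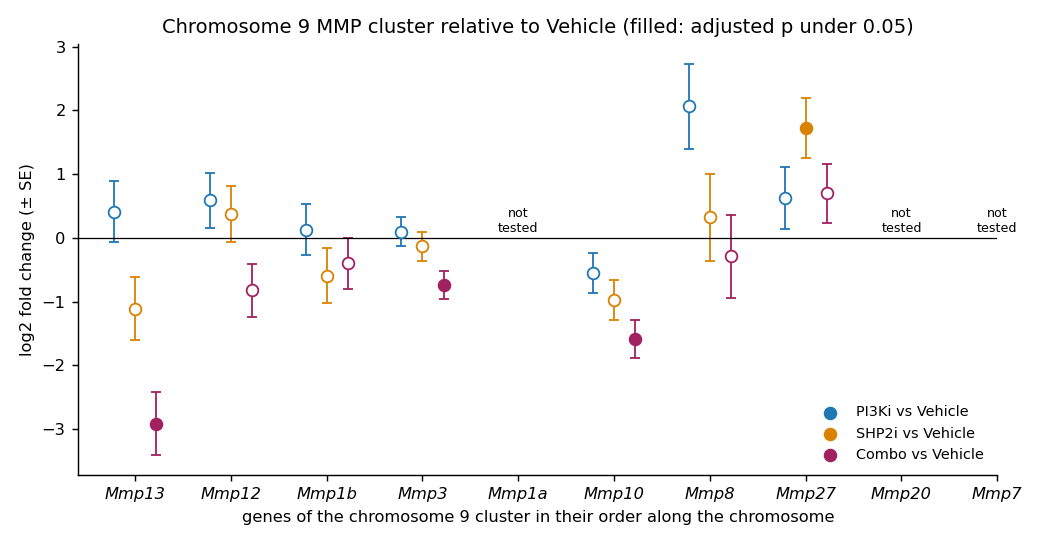
Log2 fold change against Vehicle (± SE) for the 10 MMP genes of the chromosome 9 cluster in their order along the chromosome, not to scale, with filled points at an adjusted p under 0.05. Combo points are filled for Mmp13 (-2.91), Mmp3 (-0.74) and Mmp10 (-1.58), and the SHP2i point for Mmp27 (1.72). Mmp1a, Mmp20 and Mmp7 had too few counts for the test.

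Genes that activate, restrain or induce MMPs were taken from lists. Of 19 tested genes of MMP activation and restraint, 4 were higher and 4 lower in Combo than in Vehicle, a share close to the 43.6% of all genes called. Plaur, the urokinase receptor that localizes plasminogen activation, fell from 75.4 ± 6.63 to 37.2 ± 6.37 CPM (log2 fold change -1.02 ± 0.108, adjusted p = 2.36e-06). Cd44, a hyaluronan receptor that docks MMPs at the cell surface, fell by 0.7 on the log2 scale (adjusted p = 3.5e-05). Reck, a membrane-anchored inhibitor of MMPs, rose from 13.7 ± 2.07 to 30.4 ± 5.44 CPM (1.15 ± 0.139, adjusted p = 8.31e-06), and all its Combo tumors were above all its Vehicle tumors. Serpine2 (-0.25, adjusted p = 0.264) and Ctsb (-0.45, adjusted p = 0.0809), the most abundant of the list, missed the test.

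Of 14 factors of the AP-1 and ETS families and Runx2, which bind MMP promoters, 5 were higher and 3 lower in Combo, beside 43.6% of all genes called. Fos fell (-1.2 ± 0.219, adjusted p = 3.61e-04) and so did Junb (-0.41, adjusted p = 0.0111), while Fosl2 (0.55, adjusted p = 2.33e-04), Ets1 (0.39, adjusted p = 0.0223) and Etv1 (0.96, adjusted p = 5.36e-05) rose. The remaining calls, named to complete the list, were Jun (0.54, adjusted p = 0.000444) and Elf3 (1.3, adjusted p = 0.000966), which rose, and Etv5 (-0.46, adjusted p = 0.00702), which fell. Of 16 inducers of MMP transcription, 2 were higher and 7 lower, beside the same 43.6%. The inflammatory cytokine Il1b fell from 92.3 ± 14.9 to 7.68 ± 3.67 CPM (-3.58 ± 0.343, adjusted p = 9e-07) and Tgfb1 from 162 ± 4.34 to 90.9 ± 6.24 CPM (-0.84 ± 0.0676, adjusted p = 1.84e-07), while Ptgs2, the inducible cyclooxygenase, rose from 125 ± 6.8 to 286 ± 29.7 CPM (1.2 ± 0.0859, adjusted p = 5.93e-08). In SHP2i 1 of the 16 inducers was higher and 5 were lower, beside 11.6% of all genes called. In PI3Ki 1 was higher and 2 were lower, beside 5.11%.

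Of 15 tested matrix substrates, 1 was higher in Combo (the proteoglycan Dcn, 1.39 ± 0.244, adjusted p = 2.67e-04) and 7 were lower, among them Eln, which encodes elastin (-1.32 ± 0.328, adjusted p = 0.00387), and Spp1, which encodes osteopontin (-0.95 ± 0.157, adjusted p = 1.44e-04), so that 8 of 15 were called beside 43.6% of all genes. Col3a1 (-1.01 ± 0.561, adjusted p = 0.158) and Fn1 (0.09 ± 0.252, adjusted p = 0.798), a fibrillar collagen and fibronectin, were not called. Some other fibrillar collagens of the list are given by level, chosen after their values were seen. Col1a1 stood at 1420 ± 481 CPM in Vehicle and 563 ± 375 in Combo, and Col1a2 at 1220 ± 312 and 521 ± 365, with overlapping ranges. Col5a1 stood at 330 ± 50.5 and 310 ± 41.1 CPM. Of 15 ADAM and ADAMTS proteases, families of which Timp3 can inhibit only some, 1 was higher, Adam10 (0.29, adjusted p = 0.011), and 3 were lower, Adam8 (-1.62, adjusted p = 0.00308), Adamts4 (-0.62, adjusted p = 4.8e-04) and Adam15 (-0.52, adjusted p = 5.76e-04), a smaller share than the 43.6% of all genes. Adam17 was at -0.06 (adjusted p = 0.657).

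Marker levels of host cells moved with some members. The counts of markers called stand beside 43.6% of all genes called in Combo and 11.6% in SHP2i. Macrophage markers were lower in Combo for 8 of 10 genes and higher for 1, with summed levels of 472 to 2020 CPM against 1910 to 2450 CPM in Vehicle, and in SHP2i 6 of 10 were lower (706 to 1700 CPM). Relative to the Vehicle mean, their mean log2 level in Combo replicates 1 to 5 was -2.04, -0.84, -0.76, -2.52 and -2.89, and the tumors with the least Mmp13, replicates 4 and 5, were also those with the lowest macrophage markers. Combo replicates 2 and 3 had almost the same macrophage marker level but 11.1 and 42.6 CPM of Mmp13. Endothelial markers were lower in Combo for 9 of 10 genes (396 to 480 CPM against 684 to 832 CPM in Vehicle), and Timp3 was lower in the same tumors. Of 12 fibroblast markers, 2 were higher and 4 lower in Combo, near the share of all genes. Fibroblast marker sums ran from 2470 to 5700 CPM in Combo and from 4080 to 6970 CPM in Vehicle. They reached 15800 CPM in PI3Ki replicate 2, the tumor with the most Mmp2. No marker of these 3 lists was at 0 throughout a group. The part of these cells in the members' values was not tested.

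**Figure D5:**
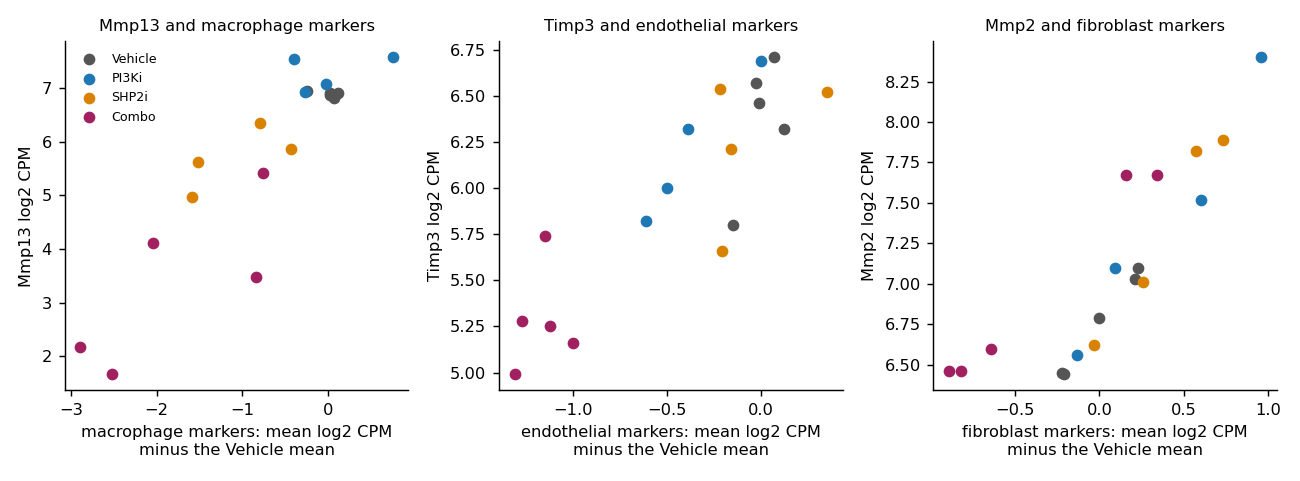
Log2 CPM of Mmp13, Timp3 and Mmp2 in the 18 tumors (vertical axes) beside the mean log2 CPM of macrophage, endothelial and fibroblast markers minus their Vehicle mean (horizontal axes), with colors for the 4 groups. Combo tumors lie at -2.89 to -0.76 for macrophage markers, at -1.31 to -1 for endothelial markers and at -0.89 to 0.34 for fibroblast markers.

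The genes whose log2 CPM followed each member most closely over the 18 tumors were ranked by Pearson's r, as a description only, since treatment groups and shared cell types both enter such values. For Mmp13 they were Clec7a (r = 0.97, and 0.87 after the group means were removed), Csf2ra (0.96) and Myo1f (0.95). For Mmp2 they were Nsg1 (0.95), Serping1 (0.93) and Itga11 (0.93), which held almost unchanged within groups (0.94, 0.92 and 0.92). Mmp11 was followed by Slc25a36, Spns2 and Itga10 (each 0.96), and these fell to 0.67, 0.61 and 0.54 within groups. Mmp3 had Cenpt (0.9), Csf3 (0.88) and Bdkrb1 (0.87), Mmp10 had Fgfbp1 (0.85), Ereg (0.84) and Lama3 (0.83), and Mmp14 had Pdlim5 (0.93), 1700017B05Rik (0.92) and Fkbp5 (0.91). Besides their synapsin partners, Timp1 was followed by Slc22a17 and Tfpi2 (each 0.87) and Timp3 by Plekhg1 (0.93) and Tie1 (0.89), an endothelial marker of the list used. Within groups the r of Timp3 was 0.81 with Plekhg1 and 0.63 with Tie1. For Timp2 they were Gm11747, Ctdsp2 and Foxo3 (each 0.94). Within groups the values of Timp2 were 0.86, 0.72 and 0.77, and those of Mmp10 were 0.59, 0.68 and 0.54. Those of Mmp3, Mmp14 and Timp1 lay between 0.74 and 0.89 within groups, the synapsin partner aside.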

How the data were processed

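Per the study's methods and the labels, directional paired-end libraries of poly(A) RNA were trimmed (cutadapt), mapped to the GRCm38 build (STAR) and summarised by gene (QuasR, function qCount). What the authors deposited are these raw counts, 1 whole number for each gene and tumor. The strand setting and annotation are not given in the sources used here. The tables were used as deposited, and samples were grouped by their labels.

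The model was fitted in R 4.3.3 by edgeR 4.0.16: filterByExpr (minimum count 10, minimum total 15), TMM scaling, 1 model with a mean per group over all 18 tumors, the quasi-likelihood F test, and Benjamini-Hochberg adjustment. SE is the log2 fold change over the square root of F. CPM were TMM scaled, and log2 CPM had a prior count of 2. Exon lengths came from GENCODE (basic) and coordinates from RefSeq (GRCm38.p6). The members and gene lists were chosen with earlier results of these data known. Named list genes are the 3 with the smallest p in Combo against Vehicle and the 2 with the highest mean level, and neighbours are the 3 with the highest r. Nothing in the labels says more of the tumors than 1 per mouse, and no 2 libraries held identical counts. Alternatives were other scalings, filters and tests (DESeq2 1.42.0, limma 3.58.1), a fold limit, the compared groups alone, a replicate block and each tumor left out in turn. The fits were tested on simulated data.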

Additional observations from a re-analysis of the deposited data

Results flagged for a closer look

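Mmp11 was flagged because the effect of the combination differed from that of the single inhibitors: its interaction of PI3Ki and SHP2i was 0.93 on the log2 scale (SE 0.131, adjusted p = 0.00179 in edgeR's quasi-likelihood test), and every Combo tumor was above every tumor of the other groups. Reads shared with Chchd10 may enter the Mmp11 value, and their part was not tested. Of 36 sets of a member within a group, 0 held a tumor far enough from the others to be flagged.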

How the results depend on the processing

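No member's log2 fold change reversed its direction where it was past the test. Among single values, 598 of 621 kept their side of the threshold under the alternatives other than leaving out 1 tumor, 11 lost and 12 gained the call. When 1 tumor was left out, 1094 of 1134 did so, 33 lost and 7 gained the call. Among the values that kept their side, 30 changed sign, each past the test in neither fit, and the largest of these was 0.47 in size before the change. The counts of members called depended on the setting as follows, and the cause was not tested unless the setting itself states it.

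With the fold limit added, the count fell to 0 for PI3Ki and for SHP2i against Vehicle, to 4 for Combo against Vehicle, to 3 for Combo against PI3Ki, to 2 for Combo against SHP2i and to 0 for the interaction. For SHP2i against Vehicle it was 2, in place of 1, with DESeq2, voom, upper-quartile scaling, a mean CPM of at least 1, the compared groups alone, and without Combo replicates 3 and 4. Combo against SHP2i gave 3 with the compared groups alone. SHP2i against PI3Ki gave 0 with library-size scaling. The interaction gave 2 with voom and without Combo replicates 3 and 4. Leaving out 1 tumor gave 7 to 8 for Combo against Vehicle, 7 to 8 against PI3Ki, 3 to 7 against SHP2i (3 without SHP2i replicate 5), 0 to 1 for PI3Ki against Vehicle, 0 to 2 for SHP2i against Vehicle, 0 to 1 for SHP2i against PI3Ki and 1 to 2 for the interaction.

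Replicate numbers are shared between groups but did not pair the tumors: over 24 same-number pairs the correlation of deviations ran from -0.52 to 0.32 (median 0, 7 pairs over 0.1), and 3 of 18 tumors correlated best with their own number. With the replicate block, SHP2i against PI3Ki gave 0 members called in place of 1, and no other count of members called moved by over 1.5 times. The groups of 4 or 5 tumors and counts of 30 to 58 for Mmp10 in Combo limit the precision.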
